A study of Homo sapiens with 5 samples.

Results

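The clade B serpins other than SERPINB2 were examined in MCF10A SAM cells with raised JUN. The members are 10 genes (SERPINB1, SERPINB3 to SERPINB10 and SERPINB13), found by their Entrez identifiers among the 23459 genes of a 3′ mRNA sequencing count table. MCF10A is a line of immortalised human breast epithelium. Its SAM derivatives (for Synergistic Activation Mediator) carry dCas9-VP64 and MCP-p65-HSF1, through which a guide RNA brings transcriptional activators to a chosen promoter. Both groups carry these activators. The 3 NTC libraries came from cells infected with a non-targeting control guide and the 2 sgJUN#1 libraries from cells infected with 1 guide to the JUN promoter, so the groups differ in the guide alone as far as the labels state. The study describes the SAM line as clonal and gives n = 2 biological replicates for its comparison of this guide with the control. The labels give 3 NTC libraries, and all were used here. The labels do not name separate cultures, so p-values rest on the spread between these libraries, which the fit estimates in part from other genes.

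Serpins are proteins that hold out an exposed reactive loop as bait for a protease, and most of them trap the protease covalently when it cuts that loop. Clade B is the branch whose members mostly lack a signal peptide and stay inside the cell, where they guard against proteases that leak from lysosomes or granules. In humans the clade B genes lie in a pair of clusters, at 18q21 and at 6p25. SERPINB2, the plasminogen activator inhibitor that binds urokinase and tissue plasminogen activator, sits inside the 18q21 cluster, and the question was whether its neighbours moved with it. Several members are known from stratified epithelia, and SERPINB5 (maspin) was first described in mammary epithelium.

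Library totals ran from 2455627 to 4988062 counts. Levels are given as CPM, counts scaled to library size with TMM factors. A 3′ read marks an mRNA end, so CPM was compared between genes without a length correction. A library in which a gene had 0 counts still allows 3 counts, between 0.601 and 1.22 CPM. The targeted gene, JUN, held 91, 89 and 42 counts in NTC replicates 1 to 3 and 831 and 742 in sgJUN#1, which matched the labels in direction. JUN did not pass the threshold of an adjusted p-value under 0.05 (edgeR, 0.0733), and it passed in 5 of 12 alternatives. All 10 of the epithelial markers examined were abundant enough to be tested, and 0 were called, beside 0.206% of all tested genes. EPCAM had 7.30 to 23.6 CPM in NTC and 56.3 and 143.4 CPM in sgJUN#1, and ITGB4 had 47.4 to 291.0 CPM in NTC and at most 26.3 CPM in sgJUN#1. Of 8 leukocyte markers 6 had a count, their summed level ran from 3.65 to 28.3 CPM in NTC and from 7.48 to 9.05 CPM in sgJUN#1, and CD3E and NKG7 were at 0 in all libraries. The summed level of 6 mesenchymal markers ran from 25.8 to 91.8 CPM in NTC and from 31.1 to 55.9 CPM in sgJUN#1.

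No member was called at higher or lower level in sgJUN#1. Of the 10 members, 5 had enough counts to be tested (SERPINB1, SERPINB5, SERPINB6, SERPINB7 and SERPINB8), and 0 of these 5 had an edgeR adjusted p-value under 0.05, by DESeq2 likewise 0 of 5. Of all 13616 genes tested, 28 were called, or 0.206%, 0.0808% as higher and 0.125% as lower than NTC. Before adjustment 1 member, SERPINB7, had an edgeR p-value under 0.05, where 8.38% of all tested genes lay. SERPINB7 passed the filter on low counts through its sgJUN#1 libraries only, so this is a description. The remaining 5 members (SERPINB3, SERPINB4, SERPINB9, SERPINB10 and SERPINB13) held between 3 and 16 counts together in any library. Each of the 10 members had a count in at least 1 library.

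**Figure D1:**
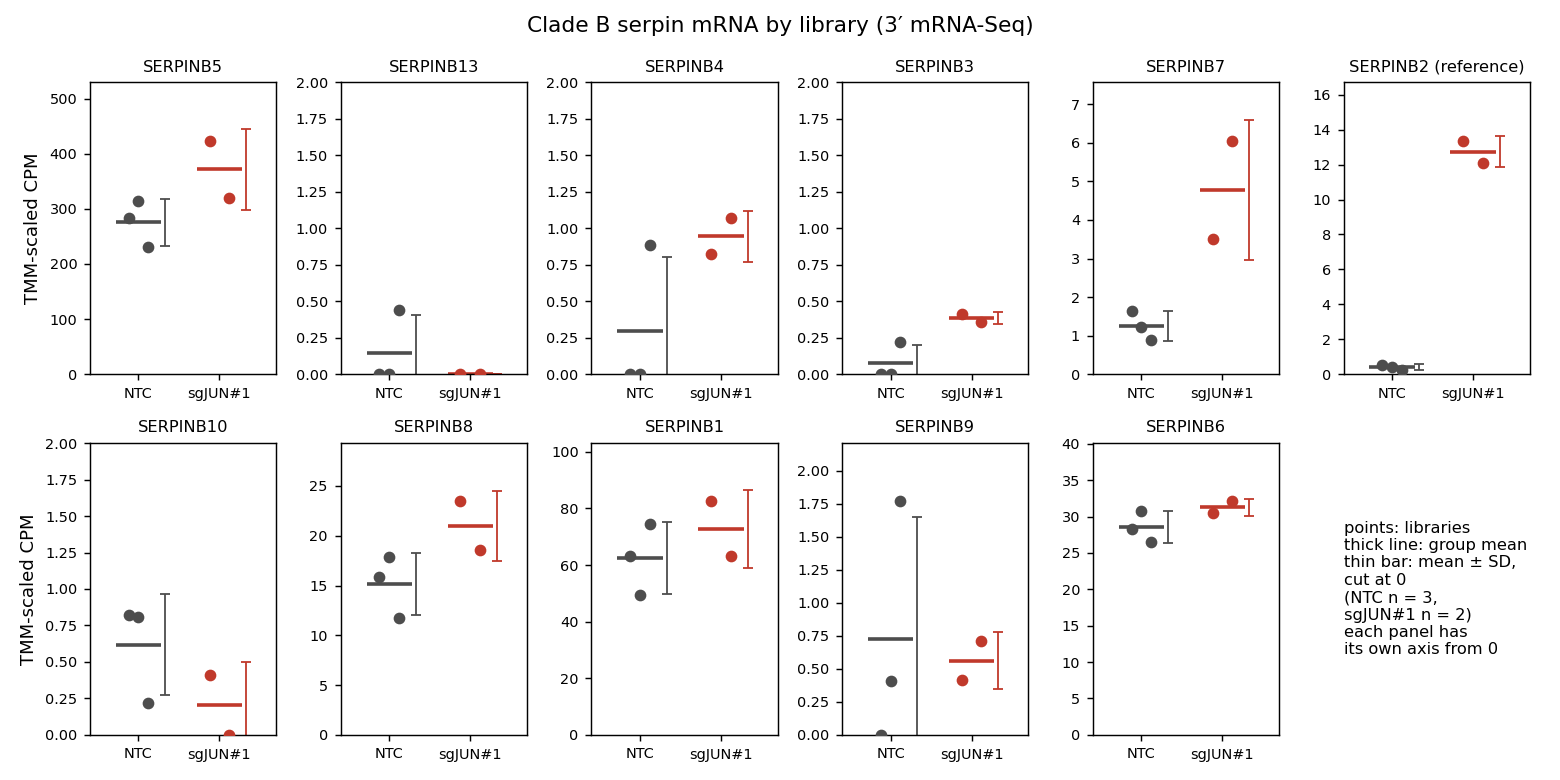
TMM-scaled CPM of the 10 members and of SERPINB2 (shown for reference) in each library, with NTC in grey (n = 3) and sgJUN#1 in red (n = 2). Points are libraries, thick lines group means and thin bars mean ± SD, cut at 0. SERPINB2 reached 13.4 and 12.1 CPM in sgJUN#1 against at most 0.548 CPM in NTC, and the groups did not overlap for SERPINB5, SERPINB7 and SERPINB8 among the members tested.

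SERPINB2 (Entrez 5055, GRCh37 chromosome 18, 61538926 to 61571122) gave the scale for its neighbours. It had 2, 1 and 1 counts in NTC and 65 and 34 in sgJUN#1, that is 0.548, 0.406 and 0.221 CPM against 13.4 and 12.1 CPM. SERPINB2 mRNA was thus close to the depth limit without the JUN guide and well above it in both sgJUN#1 libraries. The log2 fold change was 4.96 (SE 0.488), a rise of 31.1-fold with a 95% interval from 14.6-fold to 66.4-fold and an edgeR adjusted p-value of 0.00306. The NTC value rests on 4 counts in all, and the gene passed the filter on low counts through its sgJUN#1 libraries only.

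The sequences before the start sites are shown because JUN binds DNA as a part of AP-1, whose usual recognition sequence is TGACTCA or TGAGTCA. The search used the looser letters TGANTCA, where N is any base. The 3 tested members of 18q21 hold these looser letters there, as SERPINB2 does. In SERPINB2 and SERPINB5 the only match was TGAATCA, which is outside the usual form. Starts 2 and 3 of SERPINB7 and the start of SERPINB8 each had TGAGTCA among their matches. The windows are from RefSeq on GRCh38.p14, each the 250 bases before an annotated start, 5′ to 3′ on the strand of the gene, with every TGANTCA in capitals. They lie at chr18:63887455-63887704 (SERPINB2), chr18:63476708-63476957 (SERPINB5), chr18:63775168-63775417 and chr18:63777531-63777780 (starts 2 and 3 of the 3 annotated for SERPINB7), chr18:63969831-63970080 (SERPINB8), all on the plus strand, and chr6:2841864-2842113 (SERPINB1, minus strand), which is printed as a 6p25 member without a match.
SERPINB2: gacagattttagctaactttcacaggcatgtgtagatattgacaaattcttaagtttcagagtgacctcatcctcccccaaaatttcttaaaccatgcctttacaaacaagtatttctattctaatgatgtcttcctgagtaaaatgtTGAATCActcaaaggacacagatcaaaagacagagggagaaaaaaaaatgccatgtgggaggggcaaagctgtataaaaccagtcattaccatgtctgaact
SERPINB5: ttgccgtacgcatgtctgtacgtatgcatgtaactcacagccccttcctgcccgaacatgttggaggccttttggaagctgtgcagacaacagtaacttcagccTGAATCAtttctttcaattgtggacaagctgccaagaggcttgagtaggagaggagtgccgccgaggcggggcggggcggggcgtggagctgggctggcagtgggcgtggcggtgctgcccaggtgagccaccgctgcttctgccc
SERPINB7 start 2: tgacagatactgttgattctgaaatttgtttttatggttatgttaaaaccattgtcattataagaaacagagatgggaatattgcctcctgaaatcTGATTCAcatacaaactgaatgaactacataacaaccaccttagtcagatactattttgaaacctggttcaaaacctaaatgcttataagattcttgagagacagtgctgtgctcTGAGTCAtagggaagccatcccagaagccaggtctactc
SERPINB7 start 3: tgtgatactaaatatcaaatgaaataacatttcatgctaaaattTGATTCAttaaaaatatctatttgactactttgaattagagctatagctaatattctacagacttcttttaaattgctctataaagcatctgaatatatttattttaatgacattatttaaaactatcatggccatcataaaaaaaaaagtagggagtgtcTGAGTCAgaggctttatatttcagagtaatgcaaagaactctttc
SERPINB8: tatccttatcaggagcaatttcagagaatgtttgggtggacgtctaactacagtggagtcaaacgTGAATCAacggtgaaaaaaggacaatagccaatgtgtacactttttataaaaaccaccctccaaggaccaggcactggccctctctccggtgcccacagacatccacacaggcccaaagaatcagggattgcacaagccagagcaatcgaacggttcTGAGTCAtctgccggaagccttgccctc
SERPINB1: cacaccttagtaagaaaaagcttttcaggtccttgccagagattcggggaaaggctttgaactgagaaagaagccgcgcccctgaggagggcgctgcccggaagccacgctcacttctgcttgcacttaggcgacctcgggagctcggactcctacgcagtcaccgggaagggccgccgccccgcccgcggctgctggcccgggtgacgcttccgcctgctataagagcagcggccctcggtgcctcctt

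In these windows the match began 102 bases before the start in SERPINB2 and 146 bases before it in SERPINB5. SERPINB8 had matches at 185 and 28 bases. In SERPINB7, start 3 had matches at 206 and 45 bases, start 2 at 154 and 39 bases, and start 1 none. The looser letters TGANTCA were searched on both strands over 300 bases, 250 before and 50 after each start. They occurred in 7.71% of 35116 windows of all genes, and in 9.37% of 27305 genes when any start was counted. The share with the usual form alone was not counted. Of the 9 members with a window, 4 held a match, the remaining one being SERPINB13 at 87 bases (TGACTCA). The 4 starts of SERPINB6 and those of SERPINB1, SERPINB9, SERPINB3 and SERPINB4 held none. The full palindrome TGACGTCA, to which JUN dimers with ATF proteins bind, was in no member window and in 1.85% of all windows. GGAATG, the core of the TEAD sequence, was found 8 bases before the start in SERPINB3 and SERPINB4 and in no other member, against 16.7% of all genes with a window. A match is a run of letters and not a measured binding site. SERPINB10 had no window in the table used.

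SERPINB7 (megsin, known from kidney mesangial cells and skin; Entrez 8710, chromosome 18, 61420169 to 61472610) starts at -118.8 kb from the start of SERPINB2 and had the highest fold change of the tested members. It held 6, 3 and 4 counts in NTC and 17 and 17 in sgJUN#1. As levels these were 1.65, 1.22 and 0.883 CPM against 3.50 and 6.06 CPM. Both sgJUN#1 libraries thus lay above the 3 NTC libraries, at levels near the depth limit of the assay. The log2 fold change was 1.88 (SE 0.534, 95% interval 0.69 to 3.08), the unadjusted edgeR p-value 0.00591 and the adjusted p-value 0.315. SERPINB7 did not pass the threshold in any alternative in which it was fitted, its log2 fold change ran from 1.49 to 2.26 there, and its adjusted p-value from 0.166 to 0.962. Like SERPINB2, it was tested only because its sgJUN#1 libraries passed the filter, so its rank among the tested members is a description only.

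SERPINB8, which inhibits the proprotein convertase furin (Entrez 5271, chromosome 18, 61637263 to 61687013), starts 98.3 kb beyond the start of SERPINB2. Its counts were 58, 44 and 53 in NTC and 114 and 52 in sgJUN#1, or 15.9, 17.8 and 11.7 CPM against 23.4 and 18.5 CPM. The lower sgJUN#1 library lay just above the highest NTC library. The log2 fold change was 0.49 (SE 0.278, 95% interval -0.13 to 1.12), with an edgeR adjusted p-value of 0.692. It was 0.30 without sgJUN#1 replicate 1 and 0.65 without replicate 2. HMSD overlaps SERPINB8 on the same strand over 11746 bases of the annotation, but held at most 1 count in any library.

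SERPINB5 (maspin), which does not act as a protease inhibitor and is known as a tumour suppressor of mammary epithelium (Entrez 5268, chromosome 18, 61144191 to 61172318), was the most abundant member. Its start lies at -394.7 kb from that of SERPINB2. The libraries held 1032, 773 and 1042 counts in NTC and 2061 and 899 in sgJUN#1, from which 283.0, 313.5 and 230.0 CPM and 423.9 and 320.4 CPM followed. A long non-coding RNA and a pseudogene of the annotation overlap SERPINB5 on its strand over 418 and 412 bases. SERPINB5 took between 66.2% and 75.7% of the member counts of a library. Its groups did not overlap either, with the second sgJUN#1 library close to the highest NTC library. NTC averaged 275.5 ± 42.2 CPM (SD, n = 3) and sgJUN#1 averaged 372.1 ± 73.2 CPM (SD, n = 2), which is 0.44 higher on the log2 scale (SE 0.216; adjusted p-value by edgeR, 0.647). The 95% interval ran from 0.967-fold to 1.89-fold. The log2 fold change was 0.22 without sgJUN#1 replicate 1 and 0.63 without replicate 2, so its size depended on which sgJUN#1 library was used.

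Side by side, the fitted fold changes of SERPINB2 and of its tested neighbours were all above 0, and that of SERPINB2 alone passed the threshold. Of all 13616 tested genes, 6669 had a log2 fold change above 0. The groups did not overlap for SERPINB5, SERPINB7 and SERPINB8, that is for 3 of the 3 tested 18q21 members, where 12.2% of all tested genes were higher in sgJUN#1 in the same sense. SERPINB7 entered this count through its sgJUN#1 libraries, so the count is a description. Of the 5 tested members 0 were lower without overlap, beside 12.8% of all tested genes. The 3 neighbours had a median log2 fold change of 0.49, and it was 0.46 for SERPINB5 and SERPINB8 alone, beside -0.0082 over all tested genes. The log2 ratio of SERPINB2 to each neighbour, with 0.5 CPM added to both, was higher in sgJUN#1 by 2.33 for SERPINB7, 3.44 for SERPINB8 and 3.48 for SERPINB5. These differences largely carry the rise of SERPINB2 itself and are given without a test. SERPINB2 lay at 0.221 to 0.548 CPM in NTC, near the added 0.5 CPM, so their size depends on that addition. With it the log2 rise of SERPINB2 was 3.91, where the fit gave 4.96. In counts, SERPINB2 was at 0.333, 0.333 and 0.25 of SERPINB7 in NTC and at 3.82 and 2 times it in sgJUN#1.

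**Figure D2:**
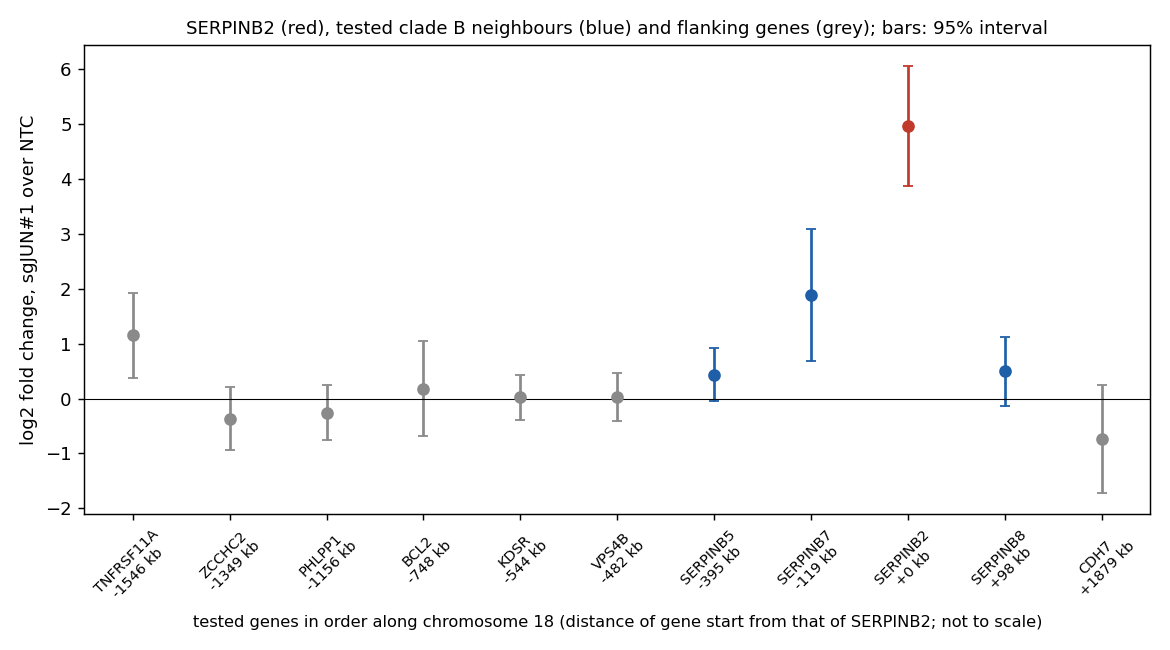
Log2 fold change of sgJUN#1 over NTC with its 95% interval (edgeR, 3 and 2 libraries) for the tested genes around SERPINB2, in order along chromosome 18 with the distance of each start from that of SERPINB2 in kb. SERPINB2 is at 4.96, the tested clade B neighbours (blue) are between 0.44 and 1.88, and the flanking genes (grey) are between -0.74 and 1.15.

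Outside the serpin cluster the nearest genes examined, all on the same side of SERPINB2 as SERPINB5, had fitted fold changes near 0 on the log2 scale. VPS4B, an ATPase of endosomal sorting whose annotated left end is at -482.5 kb from that of SERPINB2, had a log2 fold change of 0.027 (95% interval -0.40 to 0.46). KDSR, which makes sphingolipid precursors, had 0.022, and BCL2, the inhibitor of apoptosis, 0.18 (95% interval -0.68 to 1.04). The intervals of VPS4B and BCL2 include the 0.44 fitted for SERPINB5, so a difference from SERPINB5 was not resolved for them. Over the 7 tested of 8 flanking genes examined the median was 0.022 and 0 were called, where 0.206% of all tested genes were. In 1 of the 7 the groups did not overlap, with sgJUN#1 higher, beside 12.2% of all tested genes. That gene was TNFRSF11A, the receptor RANK, at -1546.4 kb from SERPINB2, with 5.21, 5.27 and 3.53 CPM in NTC and 10.5 and 9.98 CPM in sgJUN#1. TNFRSF11A was thus 1.15 higher on the log2 scale (SE 0.345) and missed the threshold (adjusted p-value by edgeR, 0.352). The lowest was CDH7, at -0.74 (edgeR adjusted p-value 0.704). It starts 1878.6 kb beyond the start of SERPINB2 and was the only flanking gene tested on that side.

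The other 18q21 members were close to absent in both groups. SERPINB10 (bomapin, known from blood cells of the bone marrow), the nearest neighbour of SERPINB2 with a start 36.3 kb away, held 3, 2 and 1 counts in NTC and 2 and 0 in sgJUN#1. The ratio of the pooled counts, sgJUN#1 over NTC, was 0.463, with an exact 95% interval from 0.0457 to 2.59 that covers counting error only. The same ratio for SERPINB2 was 34.4, with an interval from 13.001 to 128.6. A rise of SERPINB10 above 2.59-fold, and so one of the size seen for SERPINB2, lies outside its interval, while a smaller change could not be resolved at this depth. ENSG00000289724, a protein-coding gene of the annotation, overlaps both SERPINB2 and SERPINB10 on their strand.

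SERPINB4 and SERPINB3 are the squamous cell carcinoma antigens, inhibitors of cathepsin G and chymase and of the lysosomal cysteine cathepsins, respectively. SERPINB4 had 0, 0 and 4 counts in NTC and 4 and 3 in sgJUN#1, a pooled ratio of 2.43 with an exact 95% interval from 0.618 to 11.3. SERPINB3 had 0, 0 and 1 counts in NTC and 2 and 1 in sgJUN#1. These are too few for a fold. Over the last 300 bases of their canonical transcripts the genes were identical at 96.3% of aligned positions, where the next pair of clade B genes reached 53.1%, and the handling of reads that fit both copies is not stated. The split of their counts is therefore uncertain. As a sum the pair had 0, 0 and 5 counts in NTC and 6 and 4 in sgJUN#1.

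SERPINB13 (headpin), an inhibitor of cathepsins K and L in keratinocytes, had 2 counts in NTC replicate 3 and 0 in the other libraries. SERPINB11 and SERPINB12, clade B genes of the same cluster that are not members, had 0 counts in all 5 libraries. So the matches to TGANTCA before SERPINB13 and SERPINB12 stood beside genes at or under the depth limit.

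Of the 6p25 members, SERPINB1 and SERPINB6 were expressed, and the intervals of both included no difference. SERPINB1, the inhibitor of neutrophil elastase and its relatives (Entrez 1992, chromosome 6, 2832566 to 2842193), had 63.3, 49.5 and 74.6 CPM in NTC and 82.5 and 63.1 CPM in sgJUN#1. These ranges overlapped. The fitted difference was 0.22 on the log2 scale (SE 0.236, 95% interval -0.31 to 0.75, edgeR adjusted p-value 0.852). SERPINB6, which binds cathepsin G and thrombin (Entrez 5269, chromosome 6, 2948393 to 2972399), had 28.2, 30.8 and 26.5 CPM in NTC and 30.4 and 32.1 CPM in sgJUN#1. It was the steadiest member, with ranges that overlapped and a log2 difference of 0.13 (SE 0.217, adjusted p-value by edgeR 0.911). The 95% interval of SERPINB6 ran from 0.783-fold to 1.54-fold.

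SERPINB9, the inhibitor of granzyme B that protects cells from cytotoxic granules (Entrez 5272, chromosome 6, 2887504 to 2903543), had 0, 1 and 8 counts in NTC and 2 and 2 in sgJUN#1. SERPINB9P1, a pseudogene beside it, had 1, 2 and 0 counts in NTC and 1 and 4 in sgJUN#1. Most SERPINB9 counts were in NTC replicate 3. That library also had the highest summed level of the 8 leukocyte markers (28.3 CPM, most of it CD14, with MPO, CD3E and NKG7 at 0), and it was highest too in DCN (87.4 CPM), ITGB4 (291.0 CPM) and KRT5 (452.1 CPM). The part of these in the SERPINB9 count was not tested. Without that library NTC had 1 count of SERPINB9. The pooled ratio of SERPINB9 was 0.617, with an exact 95% interval from 0.139 to 2.21. The groups overlapped for SERPINB1 and SERPINB6, and the median log2 fold change of this pair was 0.18. Of 8 genes around the 6p25 cluster 6 were tested, with a median of 0.12 and 0 calls, beside 0.206% of all tested genes called.

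**Figure D3:**
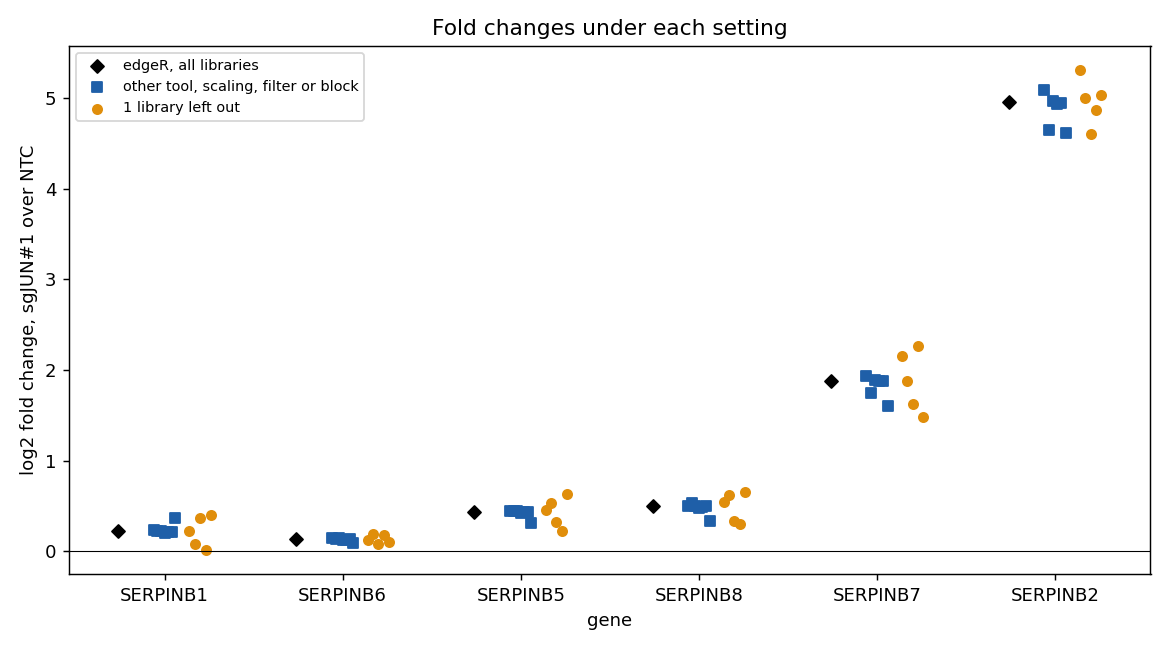
Log2 fold change of sgJUN#1 over NTC for the 5 tested members and SERPINB2 with edgeR on all libraries (black), under another tool, scaling, filter or the replicate block (blue) and with 1 library left out (orange). SERPINB2 stays between 4.61 and 5.31 and SERPINB7 between 1.49 and 2.26, while SERPINB1 goes down to 0.0099.

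The proteases that clade B serpins are known to inhibit were examined next, from a list of 19. Of these 12 were tested and 1 was called, beside 0.206% of all tested genes. The called gene was PLAT, which encodes tissue plasminogen activator, a target of SERPINB2. The groups did not overlap in 6 of the 12 with sgJUN#1 higher and in 1 with sgJUN#1 lower. Among all tested genes these shares were 12.2% and 12.8%. PLAT had 25.5, 26.4 and 24.5 CPM in NTC and 259.0 and 210.6 CPM in sgJUN#1. It rose by 9.23-fold, with a 95% interval from 6.76-fold to 12.6-fold and an adjusted p-value of 2.2e-04 by edgeR. PLAU, which encodes urokinase, also bound by SERPINB2, had 17.0, 19.1 and 5.30 CPM in NTC and 30.9 and 37.4 CPM in sgJUN#1. Its log2 fold change was 1.34, without passing the threshold (edgeR adjusted p-value 0.435). The partner of SERPINB8, FURIN, had 54.6, 60.0 and 69.1 CPM in NTC and 55.7 and 50.6 CPM in sgJUN#1, which is -0.20 as a log2 fold change (adjusted p-value 0.840). Of the cathepsins, CTSL and CTSK, targets of SERPINB3 and SERPINB13, had 0.13 and -0.0037. CTSS, also a lysosomal cysteine cathepsin of the kind that SERPINB3 inhibits, had 1.63 (edgeR adjusted p-value 0.583). CTSB had 0.70 (edgeR adjusted p-value 0.369). The groups did not overlap for CTSS and CTSB. CTSH was lowest, at -0.24. The granule proteases CTSG, a target of SERPINB1, SERPINB4 and SERPINB6, CMA1, a target of SERPINB4, and GZMB, the target of SERPINB9, had 0 counts in every library.

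Inhibitors of other families and genes of squamous differentiation gave 0 calls, where 0.206% of all tested genes were called. Of 11 serpins outside clade B 5 were tested, with a median log2 fold change of -0.095, from -0.33 for SERPINH1, a collagen chaperone, to 0.97 for SERPINA3, an inhibitor of chymotrypsin-like proteases. Of 12 other epithelial protease inhibitors 7 were tested, and all 7 had a log2 fold change above 0, beside 6669 of all 13616 tested genes. In only 2 of the 7 did the groups not overlap, with sgJUN#1 higher, beside 12.2% of all tested genes. The median of the 7 was 0.34, from 0.14 for SPINT1 to 0.98 for SLPI, which inhibits leukocyte elastase. SLPI had 9.32, 22.3 and 24.1 CPM in NTC and 58.0 and 13.5 CPM in sgJUN#1, so its rise was seen in sgJUN#1 replicate 1 only. CSTA, a cysteine protease inhibitor of epithelia, had 46.6, 53.1 and 34.9 CPM in NTC and 72.4 and 100.8 CPM in sgJUN#1, with no overlap. On the log2 scale CSTA was 0.95 higher (SE 0.245), without passing the threshold (edgeR adjusted p-value 0.264). Of 16 genes of squamous differentiation, with which SERPINB3, SERPINB4 and SERPINB13 are known to be expressed, only 4 were tested, and SPRR1A, SPRR1B, SPRR3 and S100A7 had 0 counts throughout. Among the 4, S100A8 was highest with a log2 fold change of 1.85 (adjusted p-value 0.210) and CNFN lowest with -0.64 (0.719).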

How the data were processed

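The authors made 3′ mRNA libraries with the QuantSeq forward kit. Per the labels, reads were trimmed with cutadapt 4.2 and aligned to hg19 with Bowtie2 2.3.5.1. The deposited values are raw counts per Entrez gene, not normalised. For its RNA sequencing the study names countOverlaps in R. The annotation, strand, multi-mapped reads and molecular identifiers are not given in the sources used here, so reads of overlapping or near-identical genes cannot be assigned with certainty and PCR copies may count as reads.

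Symbols were given to 23308 of 23459 genes by Entrez identifier from RefSeq, and positions by symbol from GENCODE on GRCh37, which corresponds to hg19. Differential expression used edgeR 4.0.16 in R 4.3.3 (quasi-likelihood, TMM, filterByExpr, robust estimation, group as the only term) on 13616 genes with Benjamini-Hochberg adjustment. The filter asks for 2.68 CPM, equal to 10 counts at the median library size, in at least 2 libraries. SEs were derived from the fold change and the F statistic. Pooled count ratios have exact conditional 95% intervals. Alternatives were DESeq2 1.42.0, limma-voom 3.58.1, other scalings and filters, a replicate block and each library left out. The members and lists were chosen with earlier results of these data known. Genes were named by list: JUN, the members, the other clade B genes, and for each further list its calls, its extremes and the known targets of members. The exact permutation test planned for single genes was run, but cannot go below p = 0.1 with 3 against 2 libraries, so nothing rests on it. The ratio of SERPINB2 to its neighbours was added, and CSTA, CTSB, PLAU, KDSR, VPS4B, BCL2, EPCAM, ITGB4 and the genes named at 0 were chosen, after their values were seen.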

Additional observations from a re-analysis of the deposited data

How the results depend on the processing

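In 12 alternatives 0 members were called, also with no filter, where all 10 were fitted. The 5 members tested in the main analysis had 59 fold changes in these alternatives, all above 0 and none past the threshold. These are refits of the same libraries, so their shared sign adds no separate support. In the main fit 6669 of all 13616 tested genes were above 0. With no filter, the 5 others had 2 fold changes above 0 (SERPINB3 and SERPINB4) and 3 below 0 (SERPINB9, SERPINB10 and SERPINB13). SERPINB7 could not be fitted with at least 10 counts in every library, nor could SERPINB2, which was called in the 11 others (log2 fold change 4.61 to 5.31, adjusted p-values up to 0.0429). Over all genes, 28 calls became 139 with DESeq2, 148 with no filter on low counts and 18 where every library needed 10 counts, and from 10 to 57 with 1 library left out; the cause was not tested. Without NTC replicate 1 there were 10, without NTC replicate 2 there were 56 and without NTC replicate 3 there were 57. JUN passed the threshold in 5 of 12 alternatives, and its adjusted p-value was 0.0144 when NTC replicate 2 was left out and 0.00121 when NTC replicate 3 was. Without sgJUN#1 replicate 1 the median log2 fold change fell from 0.44 to 0.22 for the members, from 0.49 to 0.30 for 18q21 and from 0.18 to 0.092 for 6p25. Over all alternatives these medians ran from 0.22 to 0.63, from 0.30 to 0.65 and from 0.092 to 0.25.

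The replicate numbers were not taken to pair the libraries: differences between replicates 1 and 2 correlated over genes at 0.0146 between the groups, on only 2 pairs. With the replicate block 103 genes were called, 0 of them members. NTC replicate 3 has no sgJUN#1 library of its number, so it adds nothing to the guide effect in that fit. JUN was among those called, with an adjusted p-value of 0.000115. SERPINB7 and SERPINB5 had log2 fold changes of 1.60 and 0.31 with the block, and of 1.63 and 0.32 without NTC replicate 3. Depth limits the 5 untested members, which had at most 16 counts together in a library.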
